A study of Homo sapiens with 21 samples.

Results

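The 9 genes described here encode the enzymes and the ornithine carrier of the urea cycle together with the enzymes that make glutamine from ammonia and release ammonia from glutamate: CPS1, SLC25A15, OTC, ASS1, ASL, ARG1, ARG2, GLUL and GLUD1. They were chosen by name and matched by symbol to the Ensembl identifiers of a gene count table, in which all 9 were found among 37637 features. Of these features 17468 had enough counts to be tested, and 7 of the 9 genes were among them. OTC and ARG1 were not. The cells were HepG2, an established line from a human liver tumour that grows as hepatocyte-like cells, so the results concern 1 line and not normal liver. Cells were moved from medium with serum into serum-free DMEM with caffeine at 0, 0.01, 0.1, 1, 10, 100 or 1000 µM and harvested with trypsin-EDTA after 6 h. Each dose had 3 libraries, and the untreated cells received the same serum-free medium without caffeine. The sample labels give this control as untreated at 0 µM caffeine, whereas the series' own text names coumarin for it, and the labels were followed. RNA was captured on poly(dT) beads before sequencing.

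The urea cycle turns toxic ammonia into urea in hepatocytes, mainly those around the portal vein. CPS1 captures ammonia as carbamoyl phosphate inside mitochondria, OTC joins it to ornithine to give citrulline, and SLC25A15 carries ornithine in and citrulline out. In the cytosol ASS1 and ASL build arginine from citrulline and aspartate, and ARG1 splits arginine into urea and ornithine. ARG2 is the mitochondrial arginase, known best from tissues other than liver. GLUL, glutamine synthetase, scavenges the remaining ammonia in hepatocytes around the central vein, where it is a target of beta-catenin signalling. GLUD1, glutamate dehydrogenase, interconverts glutamate and 2-oxoglutarate in mitochondria, releasing or binding ammonia.

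OTC and ARG1 stood apart from the other members in RNA level and, with CPS1, in the base composition of their promoters. In the RefSeq promoter table (GRCh38.p14), all 9 genes had an entry, 13 start sites in all, and the 250 bases before each start were searched for the motif CG, which reads the same on both strands. OTC had 2 CG and ARG1 had 1, and the 3 CPS1 start sites had 1, 3 and 3. ASL had 22, the GLUL start sites 22 and 25, those of ASS1 21 and 24, ARG2 27, SLC25A15 35 and GLUD1 41. Across all 35116 windows of that length the median was 11 CG, 29.3% held at most 3, 32.4% held at least 20, and 93.9% held at least 1. Both scarcely counted members thus had few CG, but so did CPS1, which was counted in every library. The promoters of some members, CPS1 not among them, are printed below 5′ to 3′ on the gene's strand, stopping before the first annotated exon base, with each CG in capitals. They are ARG1 (chr6:131572976-131573143, plus strand) and OTC (chrX:38352354-38352544, plus strand), scarcely counted, then ASL (chr7:66075569-66075797, plus strand), a member that fell at 1000 µM, and GLUD1 (chr10:87094867-87095093, minus strand), the member with the most CG.
ARG1: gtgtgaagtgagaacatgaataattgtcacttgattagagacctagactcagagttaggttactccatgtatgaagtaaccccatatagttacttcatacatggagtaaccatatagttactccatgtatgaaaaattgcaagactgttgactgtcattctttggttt
OTC: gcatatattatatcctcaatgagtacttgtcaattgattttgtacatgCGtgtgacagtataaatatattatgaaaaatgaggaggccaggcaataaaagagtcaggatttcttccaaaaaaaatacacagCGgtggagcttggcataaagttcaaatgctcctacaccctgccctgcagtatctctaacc
ASL: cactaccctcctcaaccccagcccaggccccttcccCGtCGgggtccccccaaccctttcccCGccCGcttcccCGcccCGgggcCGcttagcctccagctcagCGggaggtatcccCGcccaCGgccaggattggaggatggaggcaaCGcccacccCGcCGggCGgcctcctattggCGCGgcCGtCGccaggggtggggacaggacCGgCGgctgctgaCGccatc
GLUD1: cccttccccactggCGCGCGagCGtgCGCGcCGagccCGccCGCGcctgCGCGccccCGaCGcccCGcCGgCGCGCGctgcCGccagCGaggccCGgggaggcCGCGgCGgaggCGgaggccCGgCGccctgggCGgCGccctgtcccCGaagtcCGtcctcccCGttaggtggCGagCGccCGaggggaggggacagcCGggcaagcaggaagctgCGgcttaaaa
In these trimmed stretches ARG1 had 0 CG in 168 bases and OTC 2 in 191, against 21 in 229 for ASL and 38 in 227 for GLUD1. A CG count describes these letters only.

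The libraries held 28043623 to 40827833 counts each (median 32497612). Levels are given as CPM, the counts of a gene per 1000000 counts of the tested features in its library, scaled between libraries by TMM. Mitochondrially encoded genes took 4.95 to 14.2% of the counts. The 10 hepatocyte markers, among them ALB, AFP and APOB, summed to 26206 to 32064 CPM in every library. Of the markers of other liver cells, COL1A2 had no count, while PTPRC, CD163, COL1A1, COL3A1, VWF and KRT7 had 0 to 6 counts per library. CD68, KRT19 and SOX9 were counted in all libraries.

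Compared per kilobase of merged exons (GENCODE v29), GLUD1 had the highest level of the 9, at 192 ± 27.2 CPM per kb (mean ± SD over all 21 libraries, all doses together). ASS1 followed at 47.5 ± 4.56, GLUL at 37.5 ± 3.71, SLC25A15 at 21.4 ± 4.81, ASL at 16.7 ± 2.75, ARG2 at 13.7 ± 1.69 and CPS1 at 4.03 ± 0.436 CPM per kb. The gaps between SLC25A15 and ASL and between ASL and ARG2 were smaller than the sum of their SDs. Dividing by the longest principal transcript instead put ASS1 (73.4 CPM per kb) and GLUL (71.8) side by side, and ASL (24.9) and SLC25A15 (24.7) as well. CPS1, among the most abundant proteins of normal hepatocyte mitochondria, remained the lowest of the 7 tested genes on that scale too, at 7.47 CPM per kb.

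OTC (ENSG00000036473.8, chrX:38352545-38421450, plus strand) had 3 counts in the whole experiment, 2 in the second untreated library (0.0644 CPM) and 1 in the third library at 1 µM (0.0327 CPM). The other 19 libraries had 0 counts of it. At these depths the upper limit for a gene with no count, taken as 3 counts, lies between 0.0735 and 0.107 per 1000000 total counts. This limit uses total counts without the TMM scaling, unlike the CPM values. ARG1 (ENSG00000118520.14, chr6:131573144-131584332, plus strand) had 44 counts in all, 0 to 6 per library, and 16 libraries had at most 3. Its highest value was 0.163 CPM, at 1 µM, and no dose response of either gene could be tested at this depth. The mitochondrial arginase was the counted one: per kilobase of merged exons ARG2 stood at 13.7 CPM per kb and ARG1 at 0.0322 CPM per kb. OTC is the enzyme that makes citrulline, so the step between CPS1 and ASS1 was the least counted of the cycle.

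**Figure D1:**
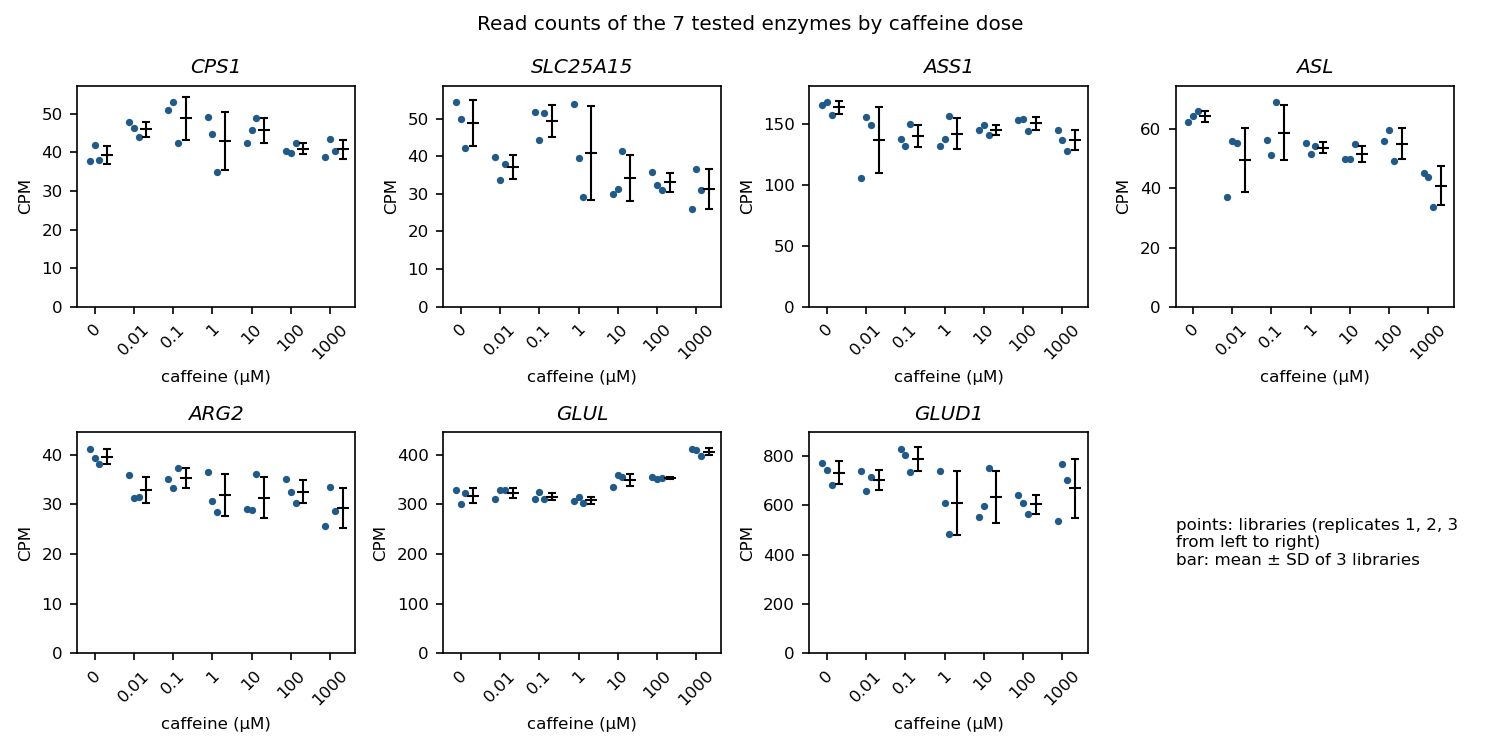
CPM of the 7 tested genes in each of the 21 libraries (points), by caffeine dose in µM, with the mean ± SD of the 3 libraries at each dose as a bar beside them. GLUL is highest at 1000 µM, where its 3 libraries lie between 398 and 412 CPM, while ASL is lowest there, between 33.5 and 45.3 CPM.

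At 1000 µM caffeine, 1 of the 7 tested genes rose and 3 fell against untreated cells, and 3 did not pass the test. Glutamine synthetase rose, and argininosuccinate lyase, the ornithine carrier and the mitochondrial arginase fell. Each change was under 2-fold. The test was edgeR's quasi-likelihood test in a fit over all 21 libraries, with Benjamini-Hochberg adjustment over all 17468 features and a threshold of 0.05. In this comparison 41.2% of all features passed, 20.6% in each direction, so 4 of 7 is to be read against a response of much of the transcriptome. The median log2 fold change of the 7 genes was -0.26, against -0.03 for all tested features. RNA of a whole culture cannot tell fewer transcripts per cell from fewer cells that carry them.

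GLUL (ENSG00000135821.18, chr1:182381704-182392206, minus strand) makes glutamine from glutamate and ammonia. It had 328, 300.2 and 324 CPM in the untreated libraries, 311, 329 and 329 at 0.01 µM, 311, 325 and 311 at 0.1 µM and 307, 315 and 302 at 1 µM. Higher up it had 335, 358 and 355 CPM at 10 µM, 355, 352 and 354 at 100 µM and 412, 409 and 398 at 1000 µM. All libraries at 10, 100 and 1000 µM lay above all 3 untreated ones, and those at the lower doses overlapped them. From 317 ± 15.1 CPM (SD, n = 3) it rose to 406 ± 7.40 CPM (n = 3) in the 1000 µM libraries, by 0.36 ± 0.06 (SE) on the log2 scale (adjusted p = 0.00025 in edgeR's test). The differences at 10 µM (log2 0.14 ± 0.06, adjusted p = 0.12) and 100 µM (log2 0.16 ± 0.06, adjusted p = 0.131) did not pass. DESeq2 called both, with adjusted p of 0.0054 and 0.0042.

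ASL (ENSG00000126522.16, chr7:66075798-66093558, plus strand) splits argininosuccinate into arginine and fumarate, and its CG-rich promoter is printed above. It had 62.5, 64.5 and 66.2 CPM in untreated cells, 37.2, 55.9 and 55.4 at 0.01 µM, 56.1, 51.1 and 69.0 at 0.1 µM and 55.1, 51.6 and 54.4 at 1 µM. At 10 µM it had 49.9, 50.0 and 54.9 CPM, at 100 µM 56.1, 59.6 and 49.3, and at 1000 µM 45.3, 43.9 and 33.5. The untreated libraries were high and close together, and every treated library other than 1 at 0.1 µM lay below all of them. At 1000 µM ASL fell from 64.4 ± 1.84 to 40.9 ± 6.44 CPM, a log2 fold change of -0.65 ± 0.14 with an adjusted p of 0.0016. Its exons share 563 bp with AC068533.4 on the same strand, which went from 16.2 ± 4.34 to 25.3 ± 6.57 CPM (log2 0.64 ± 0.32, adjusted p = 0.112), so how reads there were divided between the 2 genes bears on both values.

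SLC25A15 (ENSG00000102743.15, chr13:40789412-40810111, plus strand) carries ornithine into mitochondria. It had 54.3, 49.9 and 42.1 CPM in untreated cells, 39.8, 33.7 and 38.0 at 0.01 µM, 51.8, 44.4 and 51.6 at 0.1 µM and 53.9, 39.5 and 29.2 at 1 µM. It had 29.9, 31.4 and 41.3 CPM at 10 µM, 35.9, 32.4 and 30.9 at 100 µM and 26.1, 36.6 and 31.1 at 1000 µM. The 3 highest doses lay below every untreated library, and so did 0.01 µM, whereas 0.1 µM overlapped the controls fully and 1 µM spread over both. At 1000 µM it fell from 48.8 ± 6.16 to 31.3 ± 5.27 CPM, a log2 fold change of -0.64 ± 0.18 with an adjusted p of 0.0087 in edgeR's test. Without the first library at 1000 µM the log2 fold change was -0.50 and the call was lost (adjusted p = 0.0561).

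ARG2 (ENSG00000081181.8, chr14:67619798-67651720, plus strand) hydrolyses arginine in mitochondria. It had 41.1, 39.3 and 38.1 CPM in untreated cells, 35.8, 31.2 and 31.5 at 0.01 µM, 35.0, 33.3 and 37.4 at 0.1 µM and 36.5, 30.7 and 28.4 at 1 µM. It had 29.1, 28.8 and 36.0 CPM at 10 µM, 35.1, 32.4 and 30.3 at 100 µM and 25.6, 33.5 and 28.7 at 1000 µM. All 18 treated libraries lay below all 3 untreated ones, and the treated doses overlapped one another. At 1000 µM it fell from 39.5 ± 1.52 to 29.2 ± 4.00 CPM, a log2 fold change of -0.43 ± 0.12 with an adjusted p of 0.0064. Without the first library at 1000 µM this was -0.32 with an adjusted p of 0.0539. VTI1B overlaps 904 bp of its exons on the opposite strand and stayed within its spread, at 75.5 ± 2.92 and 75.3 ± 4.28 CPM (log2 -0.00 ± 0.08).

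ASS1, CPS1 and GLUD1 did not pass at any dose in this fit. In fits of only the 6 libraries compared, ASS1 passed at 1000 µM (adjusted p = 0.0454) and GLUD1 at 100 µM (-0.28, adjusted p = 0.0286), and CPS1 passed at 10 µM with the mitochondrial share as a covariate (0.28, adjusted p = 0.0492). ASS1 (ENSG00000130707.17, chr9:130444929-130501274, plus strand), which joins citrulline to aspartate, had 165, 168 and 157 CPM in untreated cells and 145, 137 and 128 at 1000 µM. Its 18 treated libraries ranged from 106 to 156 CPM and all lay below the untreated ones, the lowest being the first library at 0.01 µM. At 1000 µM its log2 fold change was -0.26 ± 0.11 with an adjusted p of 0.0692. Without that 0.01 µM library the same log2 fold change passed, with an adjusted p of 0.0094. ASS1 has many processed pseudogenes, and the 10 found in the table held 0.483% as many counts as ASS1 itself.

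CPS1 (ENSG00000021826.15, chr2:210477682-210679107, plus strand), which fixes free ammonia, had 37.8, 41.9 and 38.0 CPM in untreated cells and 38.7, 43.4 and 40.2 at 1000 µM. The groups overlapped there (log2 0.05 ± 0.11, adjusted p = 0.717). It was highest at 0.1 µM, at 51.0, 52.9 and 42.5 CPM, where all 3 libraries lay above the untreated ones (log2 0.31 ± 0.11, adjusted p = 0.196). Its libraries at 0.01 and 10 µM also lay above all untreated ones, at 43.9 to 47.7 and 42.5 to 48.9 CPM. GLUD1 (ENSG00000148672.9, chr10:87050486-87094866, minus strand) had 772, 745 and 681 CPM in untreated cells and 537, 767 and 701 at 1000 µM. It varied widely within single doses, from 482 to 740.0 CPM at 1 µM. Its log2 fold change at 1000 µM was -0.13 ± 0.15 (adjusted p = 0.494), and 0.031 without the first library at that dose. SHLD2, which overlaps GLUD1 on the opposite strand, rose by 0.40 ± 0.12 on the log2 scale from 91.3 ± 9.11 CPM (adjusted p = 0.0132). Its reads and those of GLUD1 can be told apart only if strand was used in counting.

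**Figure D2:**
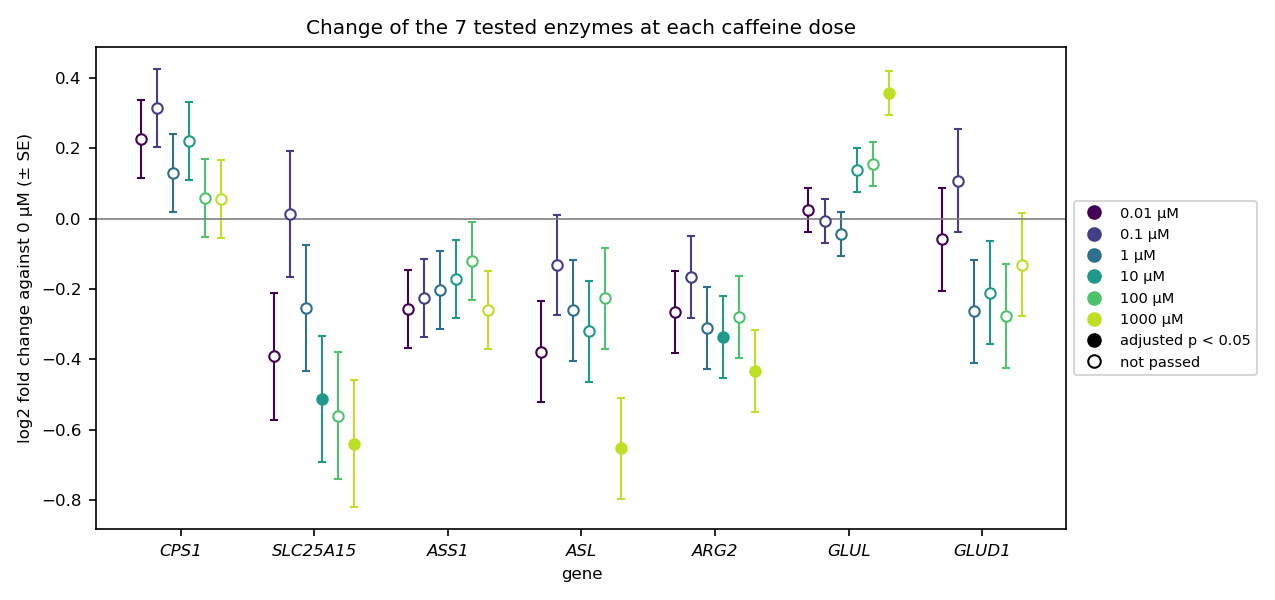
Log2 fold change against 0 µM (points, ± SE from the edgeR fit over 21 libraries) of each tested gene at the 6 caffeine doses, filled where the adjusted p was below 0.05. GLUL at 1000 µM (0.36) is the only filled point above 0, and ARG2 and SLC25A15 are filled at both 10 and 1000 µM.

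Below 1000 µM few differences passed. At 10 µM, where 22% of all features passed, 10.7% of all being lower, ARG2 fell (log2 fold change -0.34 ± 0.12, adjusted p = 0.0465) and SLC25A15 fell (-0.51 ± 0.18, adjusted p = 0.0488). Both lay close to the threshold, and each call was lost in 14 of the 21 fits that left out 1 library, with adjusted p reaching 0.177 for ARG2 and 0.191 for SLC25A15. At 100 µM none of the 7 passed by edgeR's test, against 6.02% of all features, and DESeq2 called 2, GLUL and SLC25A15. Unadjusted p there was under 0.05 for GLUL, ARG2 and SLC25A15, and for 4467 of all 17468 features. SLC25A15 came nearest, at -0.56 ± 0.18 with an adjusted p of 0.0666. Without the first or the third library at 1 µM it passed, with adjusted p of 0.0368 and 0.0388. None passed at 0.01 µM, where 4.95% of features did, nor at 0.1 or 1 µM, where edgeR called 0% of features. Unadjusted p was under 0.05 for ASS1, ASL, ARG2 and SLC25A15 at 0.01 µM, for CPS1 at 0.1 µM and for ARG2 at 1 µM, and DESeq2 called none of the 7 at these doses.

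The controls served every one of these comparisons, so the values were also set against treated cells alone. Against the mean of 0.01, 0.1 and 1 µM, where 30.1% of all features passed (16.2% higher, 14% lower), 1000 µM had higher GLUL and lower ASL and SLC25A15. GLUL differed by 0.36 ± 0.05 on the log2 scale (adjusted p = 2.7e-05), much as it did against untreated cells. ASL differed by -0.40 ± 0.12 (adjusted p = 0.018) and SLC25A15 by -0.43 ± 0.15 (adjusted p = 0.0379). ARG2 did not pass here, at -0.19 ± 0.10 with an adjusted p of 0.153, and ASS1 was at -0.03 ± 0.09 (adjusted p = 0.827). Leaving out the third library at 1000 µM ended the call of ASL (-0.27, adjusted p = 0.171), and the call of SLC25A15 was lost in 9 of 21 such fits, the adjusted p reaching 0.206 without the first library at 1000 µM. GLUL passed in all 21.

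The 3 lowest doses themselves were compared with untreated cells, a comparison in which 8.8% of all features passed. None of the 7 genes passed by edgeR's test. Unadjusted p was under 0.05 for CPS1, ASS1, ASL and ARG2, and for 4826 of all 17468 features. ARG2 was at -0.25 ± 0.09 (adjusted p = 0.0976), ASS1 at -0.23 ± 0.09 (adjusted p = 0.109), and CPS1 at 0.22 ± 0.09 on the log2 scale (adjusted p = 0.122). GLUL was at -0.01 ± 0.05.

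Between neighbouring doses the step from 100 to 1000 µM was the only one with a call. GLUL rose over that step by 0.20 ± 0.06 on the log2 scale (adjusted p = 0.0378), in a comparison where 14.7% of all features passed, 8.15% of all being higher. ASL was at -0.43 ± 0.14 over the same step (adjusted p = 0.0536), and the other 5 genes had adjusted p of 0.404 or more. The GLUL call was lost in 6 of 21 fits without 1 library, with adjusted p up to 0.0838. ASL gained the call in 3, with an adjusted p of 0.0143 without the first library at 0.01 µM. The share of features that passed was 0.0515% from 10 to 100 µM and 0% at each lower step. Of the 7 genes over these lower steps, unadjusted p was under 0.05 for SLC25A15 from 0.01 to 0.1 µM, GLUD1 from 0.1 to 1 µM and GLUL from 1 to 10 µM. In the same order, unadjusted p was under 0.05 for 1262, 705 and 468 of all 17468 features. For all 7 genes the doses from 0.01 to 100 µM therefore could not be put in order by neighbouring tests.

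Over all 7 dose groups together GLUL (adjusted p = 0.0011), SLC25A15 (0.029) and ASL (0.0394) differed, with 28.1% of all features passing. On a straight line over the 7 doses in rank order, 4 genes had a slope that passed, with 29% of all features doing so, 14.5% in each direction. Per step of dose GLUL rose by 0.05 ± 0.01 on the log2 scale (adjusted p = 0.0016), while SLC25A15 changed by -0.10 ± 0.03 (adjusted p = 0.0065), ARG2 by -0.05 ± 0.02 (adjusted p = 0.0146) and ASL by -0.07 ± 0.02 (adjusted p = 0.0324). Left without the 1000 µM libraries, none of the 4 slopes passed, SLC25A15 keeping -0.10 (adjusted p = 0.0732) and ASL having -0.03 (adjusted p = 0.409). With the 18 treated libraries alone GLUL was the only member to pass. Leaving out single libraries ended the slope of ASL in 6 of 21 fits (adjusted p up to 0.111) and that of ARG2 without the first library at 1000 µM (adjusted p = 0.058). In the comparison of all groups, single libraries ended the call of ASL in 13 fits and of SLC25A15 in 8, with adjusted p up to 0.134 and 0.0769.

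Full separation of the libraries was also counted. At 1000 µM, 4 of the 7 genes had all 3 libraries below all 3 controls and GLUL had all 3 above, where 27.3% and 25.9% of all features did so. ARG2 and ASS1 were fully below the controls at every one of the 6 doses, in comparisons that all use the same 3 untreated libraries. The share of all features fully below the controls was 16.3% at 0.01 µM, 12.4% at 0.1, 12.5% at 1, 23.4% at 10 and 22% at 100 µM. CPS1 lay fully above them at 0.01, 0.1 and 10 µM, where 15.7%, 10.1% and 22.4% of all features did, and GLUL at 10 and 100 µM (22.4% and 21%).

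Several members moved with the share of mitochondrially encoded counts, a property of the library that varied within doses. The correlation was computed for the 7 tested genes only, so no share of all features stands beside it. This share was 6.94 to 7.86% in untreated libraries, 6.48 to 11.3% at 10 µM and 6.94 to 10.3% at 1000 µM, and the farthest libraries were the third at 1 µM (14.2%) and the first at 0.01 µM (11.7%). Over the 21 libraries the log2 CPM of SLC25A15 went with it at Pearson r = -0.693 and Spearman rho = -0.784 (permutation p = 0.00038 and 4e-05, adjusted over the 7 genes 0.0017 and 0.00028). For GLUD1 r was -0.698 and rho -0.713 (permutation p = 0.00048 and 0.00053, adjusted 0.0017 and 0.0019). Both genes encode mitochondrial proteins from the nucleus.

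For ARG2, also mitochondrial, r was -0.582 and rho -0.657 (permutation p = 0.005 and 0.0015, adjusted 0.0116 and 0.0036). ASL had r = -0.466 and rho = -0.538 (adjusted permutation p = 0.0613 and 0.0226), and CPS1, whose product is mitochondrial as well, r = -0.435 and rho = -0.384 (adjusted 0.0679 and 0.12). For ASS1 r was -0.118 and rho 0.065, and for GLUL r was 0.034 and rho 0.149, with adjusted permutation p of 0.602 or more. Without the 2 libraries farthest in mitochondrial share r was -0.796 for SLC25A15, -0.730 for GLUD1 and -0.702 for ARG2. Within doses, taking each library's deviation from its dose mean, r was -0.740 for SLC25A15, -0.699 for GLUD1 and -0.584 for ARG2. With the share as a covariate in the fit, the changes at 1000 µM were -0.53 for SLC25A15 (adjusted p = 0.0026), -0.38 for ARG2 (0.0048), -0.61 for ASL (0.0019) and 0.37 for GLUL (1e-04), so all 4 passed.

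**Figure D3:**
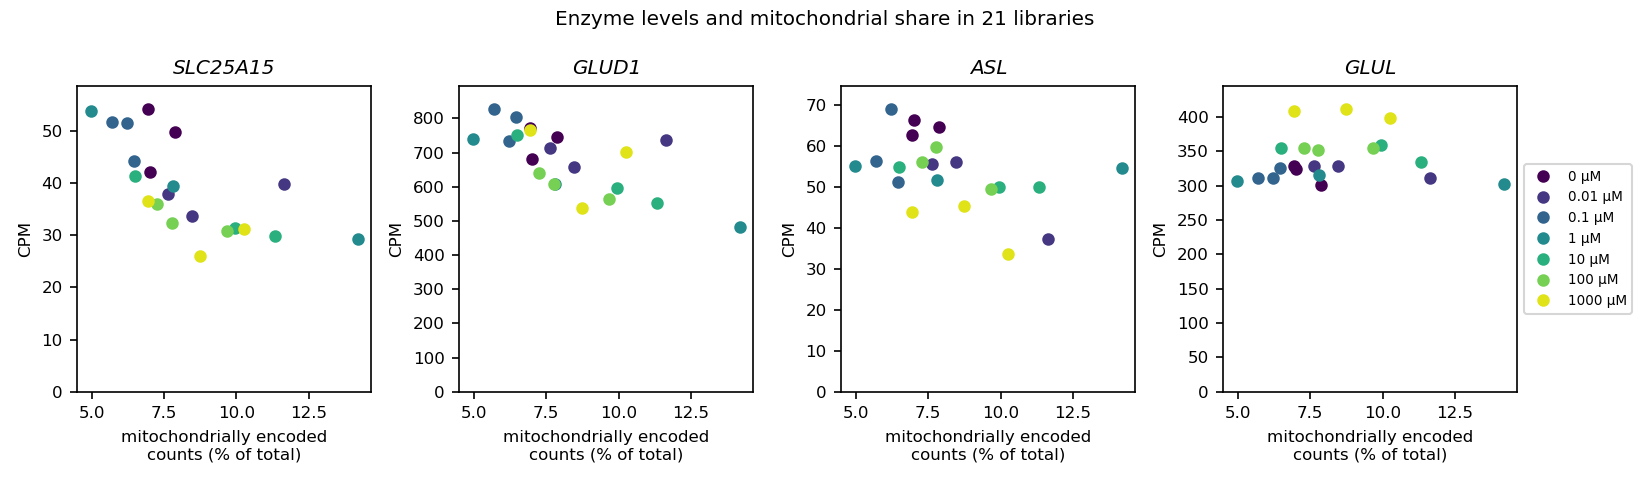
CPM of SLC25A15, GLUD1, ASL and GLUL (vertical axes) against the percent of each library's counts from mitochondrially encoded genes (horizontal axes), 1 point per library, coloured by caffeine dose. SLC25A15 and GLUD1 are lower in libraries with a higher share (r = -0.693 and -0.698 on log2 CPM), while GLUL has r = 0.034 and its 3 highest libraries are those at 1000 µM.

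Several members also varied together over the libraries. No share over pairs of other genes is given beside these values. ARG2 and SLC25A15 had r = 0.882 and rho = 0.879 over the 21 libraries, SLC25A15 and GLUD1 r = 0.807 and rho = 0.843, all with permutation p of 1e-05, the smallest these permutations can give (adjusted over 21 pairs, 0.0001). ARG2 and GLUD1 had r = 0.731 and rho = 0.708 (permutation p = 0.00019 and 0.00047, adjusted 0.001 and 0.0025). These 3 genes are the ones that went most closely with the mitochondrial share. Within doses their r was 0.907, 0.922 and 0.857, and without the 2 libraries farthest out 0.834, 0.770 and 0.675.

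ASS1 and ASL, which act in succession, had r = 0.750 and rho = 0.714 (permutation p = 0.00012 and 0.00039, adjusted 0.00084 and 0.0025), and r = 0.802 within doses. Without the 2 farthest libraries their r was 0.649. ASL and ARG2 had r = 0.536 and rho = 0.655 (adjusted permutation p = 0.0291 and 0.0061), 0.724 without the 2 farthest libraries and 0.033 within doses. CPS1 and GLUD1 had r = 0.579 and rho = 0.499 (adjusted permutation p = 0.0203 and 0.0524), 0.368 without the 2 farthest libraries and 0.747 within doses. CPS1 and ASS1 varied in opposite directions (r = -0.543, rho = -0.612, adjusted permutation p = 0.0291 and 0.0133). ASL and SLC25A15, which both fell at 1000 µM, had r = 0.498 over all libraries but 0.023 within doses. GLUL and SLC25A15 likewise had r = -0.586 over all libraries and 0.022 within doses.

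Among 12437 named genes with at least 1 CPM, those whose log2 CPM went most closely with a member over the 21 libraries were other genes than its pathway partners. These values describe the libraries, which share doses and library properties. GLUL was followed most closely by PRNP (r = 0.934), SNX9 (0.926) and OPTN (0.925). Within doses these 3 had r of 0.211, 0.619 and 0.819. SLC25A15 went with COG4 (0.963), ACTR1B (0.953) and C4BPB (0.952), and ASL with STX10 (0.967), CHMP6 (0.959) and MRPL28 (0.958). ARG2 went with HADH (0.961), ACAT2 (0.956) and CDK4 (0.953), and ASS1 with HMOX2 (0.970), RALY (0.957) and TUFM (0.956). CPS1 was nearest to CERK (0.957), STARD13 (0.903) and SLC35B4 (0.899), and GLUD1 to ATP6V1B2 (0.947), FCF1 (0.939) and ATP6V1A (0.925), of which ATP6V1B2 and ATP6V1A encode subunits of the proton pump of lysosomes.

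Around the cycle, the genes that supply it fell or did not pass at 1000 µM. Of 8 tested genes for carriers, cofactor supply and the sirtuins that act on its enzymes, 4 fell and none rose, with a median log2 fold change of -0.34. In this comparison, which the lists below share, 20.6% of all features fell and 20.6% rose, and the median over all was -0.03. The members and all lists were chosen with earlier results of these data known. Setting them beside these shares therefore does not test whether a list stands out. SIRT3, a mitochondrial deacetylase of OTC and GLUD1 among others, fell from 19.6 ± 1.31 to 13.5 ± 0.0855 CPM (log2 -0.54 ± 0.09, adjusted p = 0.00021). SIRT5, which acts on CPS1, fell from 23.4 ± 0.455 to 17.9 ± 1.57 CPM (log2 -0.39 ± 0.11, adjusted p = 0.0089), a call lost with no filter on low counts (-0.35, adjusted p = 0.0509). FH, which takes up the fumarate that ASL makes, and CA5A, which supplies mitochondrial bicarbonate, fell by 0.37 and 0.31 on the log2 scale (adjusted p = 0.0354 and 0.0401). Both calls were fragile, lost in 10 and 14 of the 21 fits without 1 library, with adjusted p up to 0.185 and 0.199. Against the 3 lowest doses FH (-0.15, adjusted p = 0.326) and CA5A (-0.12, adjusted p = 0.372) did not pass. SIRT3 (-0.46, adjusted p = 0.00021) and SIRT5 (-0.35, adjusted p = 0.0069) passed there. NAGS, which makes the activator of CPS1, was at -0.20 (adjusted p = 0.357), and the aspartate-glutamate carrier SLC25A13 at -0.08 (adjusted p = 0.605). SLC25A2 was not tested.

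Of 10 tested enzymes that use glutamine, 1 rose and 2 fell, with a median of -0.07, where 41.2% of all features passed. Against the 3 lowest doses 1 was higher and 4 were lower, where 30.1% of all features passed. GLS2, the liver glutaminase, which releases ammonia from glutamine, fell from 26.4 ± 2.15 to 17.5 ± 1.64 CPM, with no overlap between the groups (log2 -0.59 ± 0.12, adjusted p = 0.00095). ASNS, which takes the amide of glutamine to make asparagine, was the 1 that rose, from 63.1 ± 2.60 to 87.1 ± 5.39 CPM (adjusted p = 0.00099). PFAS, of purine synthesis, fell by 0.32 on the log2 scale (adjusted p = 0.0069), a call lost without the third library at 1000 µM (-0.25, adjusted p = 0.0528) or with no filter (-0.29, adjusted p = 0.061).

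Of 12 tested aminotransferases and enzymes between ornithine and proline, 7 fell and 1 rose, with a median of -0.31, where 20.6% of all features went each way. The 3 with the largest log2 changes make proline or break down proline or hydroxyproline. PRODH, proline dehydrogenase, fell from 1.58 ± 0.516 to 0.388 ± 0.121 CPM (log2 -2.01 ± 0.29, adjusted p = 4.6e-05). PYCR3, a pyrroline-5-carboxylate reductase, fell from 12.9 ± 1.09 to 4.88 ± 0.708 CPM (log2 -1.40 ± 0.17, adjusted p = 9.1e-06). PRODH2, hydroxyproline dehydrogenase, fell from 27.4 ± 2.29 to 12.3 ± 1.16 CPM (log2 -1.15 ± 0.14, adjusted p = 8.8e-06). GPT, the cytosolic alanine aminotransferase, fell by 0.89 (adjusted p = 0.0013), and its mitochondrial counterpart GPT2 was the 1 that rose, from 192 ± 9.40 to 289 ± 15.7 CPM. OAT, which makes ornithine outside the cycle, was at 0.07 (adjusted p = 0.826).

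Of 16 tested genes for arginine use and polyamines, 4 rose and 5 fell, where 20.6% of all features went each way. SMOX, spermine oxidase, rose from 36.7 ± 1.64 to 115 ± 3.59 CPM (log2 1.65 ± 0.10, adjusted p = 5.7e-09). SRM, spermidine synthase, fell from 319 ± 7.34 to 172 ± 52.7 CPM (log2 -0.89 ± 0.23, adjusted p = 0.0053). PAOX, another polyamine oxidase, and GAMT, of creatine synthesis, fell by 1.36 and 0.94 (adjusted p = 0.00093 and 0.00054). ODC1, which decarboxylates the ornithine that arginase releases, was at -0.31 (adjusted p = 0.0695).

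Of 16 tested transporters of amino acids and ammonia, 9 rose, 1 fell and 6 did not pass, with a median of 0.50, where 20.6% of all features rose. SLC38A2 and SLC38A1, which import glutamine, rose from 304 ± 7.42 to 799 ± 135 CPM and from 174 ± 9.24 to 373 ± 28.1 CPM (adjusted p = 1.8e-05 and 5.4e-06). SLC7A11, the cystine-glutamate exchanger, rose from 28.1 ± 0.702 to 88.9 ± 12.3 CPM (log2 1.66 ± 0.22, adjusted p = 2.2e-05). SLC1A2, a glutamate importer, rose from between 4.12 and 4.72 CPM to between 10.1 and 11.4 CPM (log2 1.29 ± 0.16, adjusted p = 1.2e-05). RHBG, an ammonia channel, was the 1 that fell, by 0.35 (adjusted p = 0.0035).

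**Figure D4:**
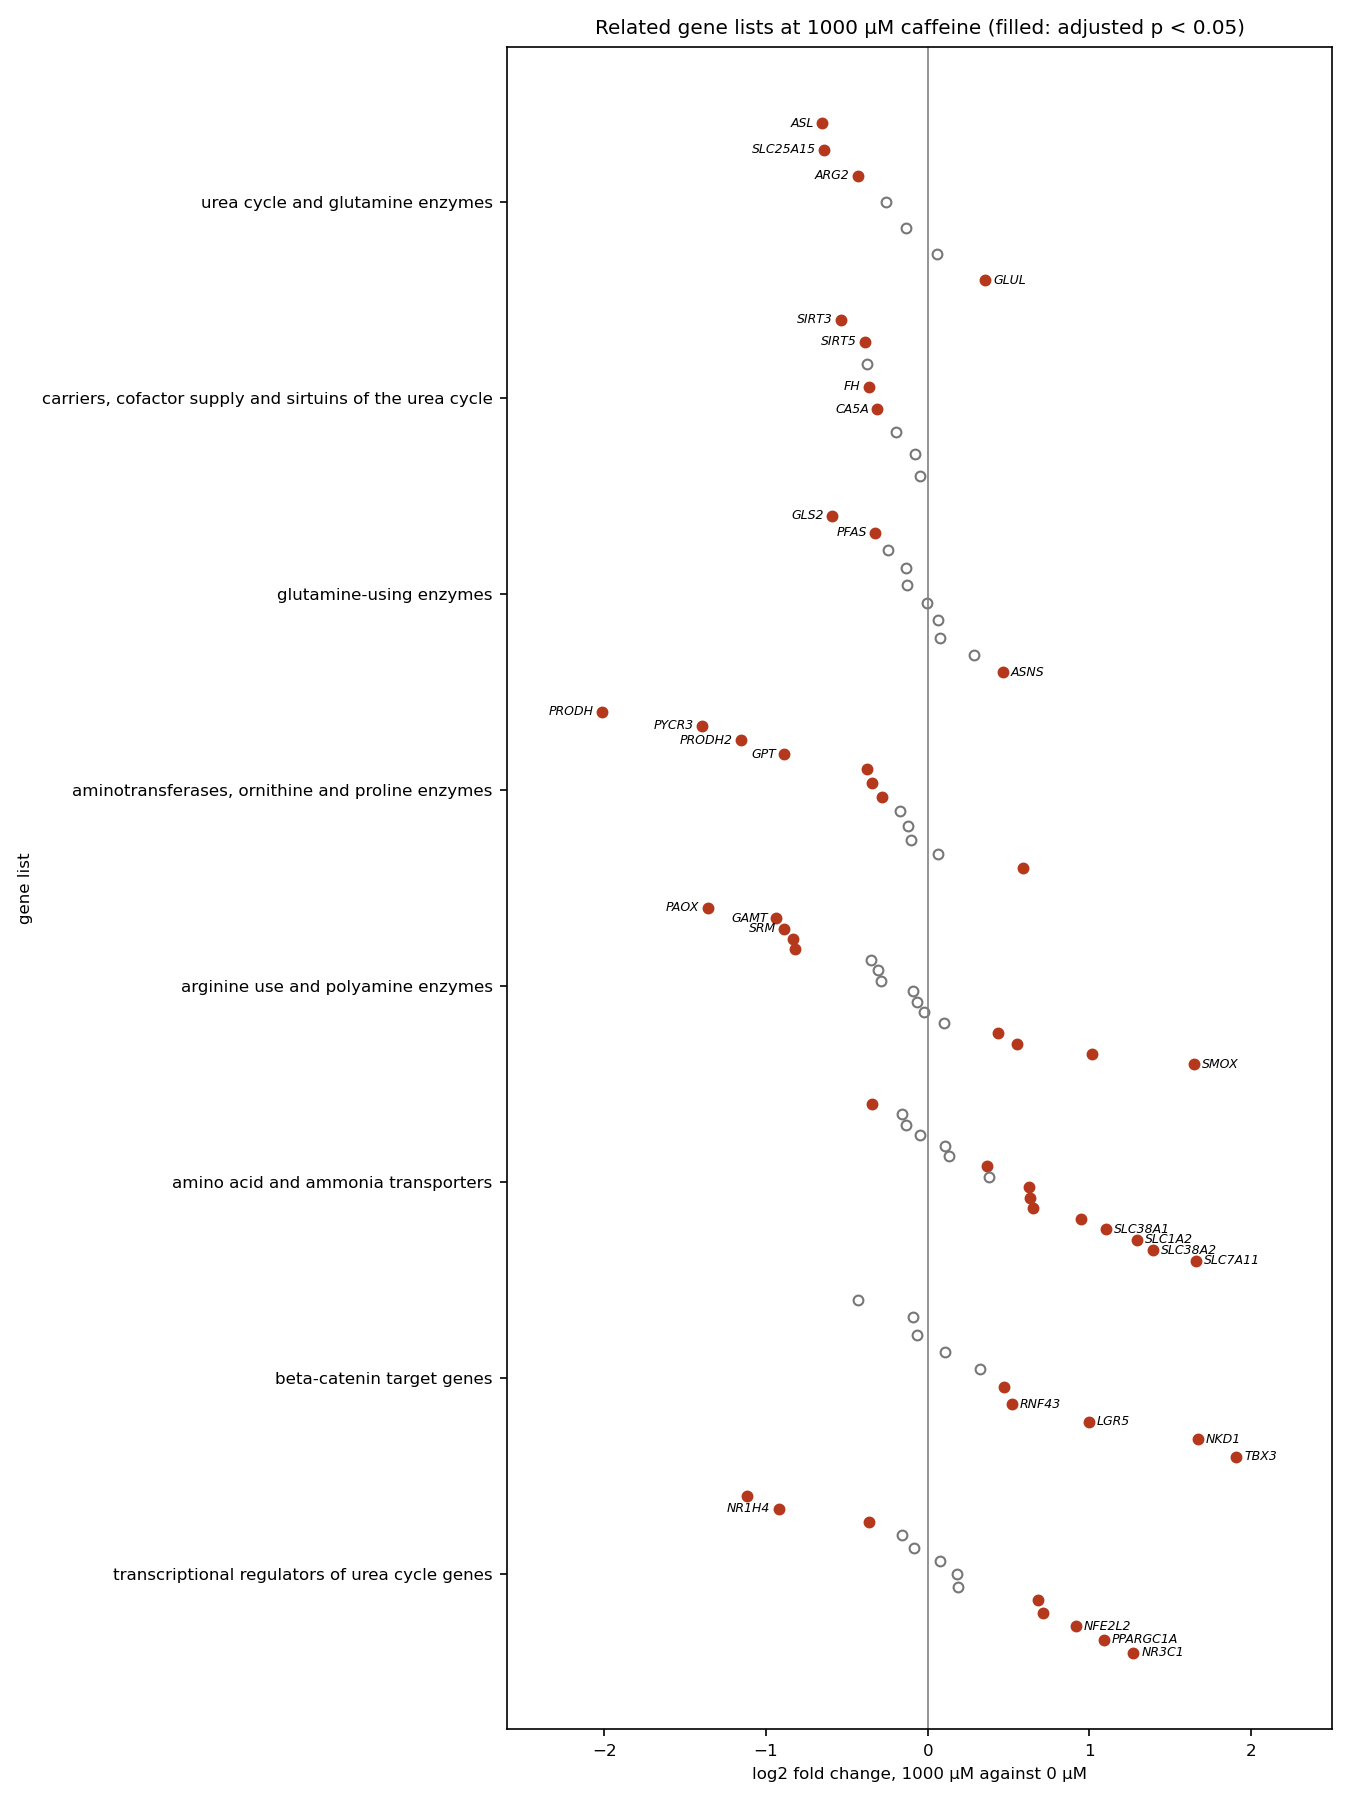
Log2 fold change at 1000 µM against 0 µM (edgeR, 3 libraries each in a fit over 21) of every tested gene in the urea cycle and glutamine set and in 7 related lists, 1 point per gene, filled where the adjusted p was below 0.05; within a list genes are stacked by value only. The beta-catenin targets have 5 filled points, all above 0, and the aminotransferase and proline list has 7 below 0 and 1 above.

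GLUL is itself known as a target of beta-catenin, and of 10 other tested targets 5 rose and none fell, with a median of 0.40, where 20.6% of all features rose. Against the 3 lowest doses 4 were higher, where 16.2% of all features were, and the median was 0.15. TBX3 rose from 60.1 ± 4.24 to 225 ± 22.1 CPM (log2 1.91 ± 0.13, adjusted p = 1.2e-08) and NKD1 from 170.1 ± 7.17 to 541 ± 102 CPM (log2 1.67 ± 0.16, adjusted p = 9.2e-07). LGR5, the receptor of R-spondins, rose from 66.4 ± 8.13 to 133 ± 13.7 CPM (adjusted p = 1.3e-05), RNF43 by 0.52 ± 0.15 on the log2 scale (adjusted p = 0.0124) and AXIN2 by 0.47. RNF43 did not pass against the 3 lowest doses (0.14, adjusted p = 0.433). SP5, NOTUM and DKK1, targets too, were at -0.43, -0.07 and -0.09 and did not pass. CYP2E1 and LEF1, the other listed targets, were not tested. At 100 µM, where GLUL did not pass, 4 of the 10 also rose against untreated cells, where 479 of all 17468 features rose. They were NKD1 (0.75, adjusted p = 0.0208), TBX3 (0.56, adjusted p = 0.0236), LGR5 (0.49, adjusted p = 0.0351) and RNF43. RNF43 lay at the threshold (0.53, adjusted p rounding to 0.05), with a wide spread of 76.8 ± 20.6 CPM. Whether GLUL and these genes differ in their response at 100 µM was not tested, nor was a part of beta-catenin in these changes.

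Of 13 tested transcription factors and cofactors known to act on urea cycle genes, 5 rose and 3 fell at 1000 µM, where 20.6% of all features went each way. NR3C1, the glucocorticoid receptor, rose from 21.5 ± 1.05 to 51.8 ± 1.86 CPM (log2 1.27 ± 0.15, adjusted p = 6.9e-06), and PPARGC1A, a coactivator of fasting genes, from 7.36 ± 0.578 to 15.7 ± 2.82 CPM (adjusted p = 9.8e-05). NFE2L2 rose by 0.92 ± 0.09 (adjusted p = 4.8e-07). NR1H4, the bile acid receptor, fell by 0.92 ± 0.12 to 7.38 ± 0.967 CPM (adjusted p = 1.5e-05). HNF4A, central to hepatocyte identity, was at 0.18 (adjusted p = 0.057), and CEBPA fell by 0.36 (adjusted p = 0.0303). The CEBPA libraries at 1000 µM overlapped the untreated ones, and against the 3 lowest doses CEBPA was at 0.07 (adjusted p = 0.647).

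Of 10 tested hepatocyte markers, 4 fell and 1 rose at 1000 µM, where 41.2% of all features passed. APOA1 fell from 1740 ± 325 to 847 ± 189 CPM, APOA2 from 2961 ± 308 to 1666 ± 170.1 CPM and AFP from 3497 ± 248 to 2163 ± 184 CPM (adjusted p = 0.00077, 0.00058 and 4.5e-05). APOB rose from 5190 ± 88.8 to 7649 ± 819 CPM (adjusted p = 0.0163), a call lost without the first untreated library (adjusted p = 0.0502) or the third at 1000 µM (0.0655). Against the 3 lowest doses APOB was at -0.11 (adjusted p = 0.587) and APOA1 at -0.41 (adjusted p = 0.0797). APOA2 (-0.53, adjusted p = 0.006) and AFP (-0.30, adjusted p = 0.0111) were lower there too. ALB was at -0.07 (adjusted p = 0.739). The summed markers stood at 28128 to 30779 CPM in untreated libraries and at 26206 to 27793 CPM at 1000 µM. Of the markers of other liver cells, KRT19 fell from 218 ± 12.6 to 146 ± 20.7 CPM (adjusted p = 0.0199, lost in 3 of 21 fits without 1 library, up to 0.0935), and their part in the results was not tested. KRT19 did not pass against the 3 lowest doses (-0.25, adjusted p = 0.249). Several of the genes named in these lists overlap another gene. GLS2, NFE2L2, PAOX and RNF43 do so on the same strand, and APOA1, APOB, CA5A, GPT, LGR5, NKD1, PRODH, SIRT3, SIRT5 and SLC7A11 on the opposite strand, so their counts may include reads of the neighbour.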

How the data were processed

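The authors deposited a table of raw read counts per gene, and the submitters' processing notes name HISAT2, DESeq2 and GRCh38. The read counter, annotation release and strand setting are not given in the sources used here. Of 42 columns of per-sample values, 21 were matched to samples by name and used, and 21 were not used. Counts were scaled by TMM, filtered with filterByExpr (minimum count 10) and tested in edgeR 4.0.16 (quasi-likelihood, limma 3.58.1, R 4.3.3) with 7 dose groups in a fit with 14 residual degrees of freedom, over 17468 features, 1617 of them without annotation. Adjusted p-values are Benjamini-Hochberg over all features tested. CPM divides by the count of the tested features of a library times its TMM factor. Gene positions and lengths came from GENCODE v29 (GRCh38), and 24843 identifiers had a symbol. Correlations used 100000 permutations. The code was tested on simulated data.

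The members and the related lists were chosen with earlier results of these data known. Of the glutamine-using enzymes, 1 gene is not reported here. Up to 4 genes per list are named, those past the threshold at 1000 µM with at least 1 CPM and no overlap with the controls, largest change first; SLC25A13, NAGS, OAT, GPT2, ODC1, RHBG, AXIN2, SP5, NOTUM, DKK1, HNF4A, CEBPA and ALB were named after their values were seen. The 3 closest genes by Pearson r are named for each member. The series text calls the samples of a dose biological replicates, but nothing says how cultures were separated, so p-values measure the spread between these samples. Replicate libraries differed beyond counting noise in all 21 pairs. Intervals for counts of 0 cover counting error only. Alternatives were DESeq2 1.42.0, RLE scaling, other filters, only the 6 samples compared, a replicate block, the mitochondrial share as covariate, subsets of doses, and leaving out each library.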

Additional observations from a re-analysis of the deposited data

How the results depend on the processing

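At 1000 against 0 µM the calls of GLUL, ASL, SLC25A15 and ARG2 stood under every alternative other than leaving out 1 library. Leaving out 1 library gave 2 to 5 called members, and 1 to 4 against the 3 lowest doses. GLUD1 ranged from -0.22 to 0.031 against 0 µM and from -0.16 to 0.089 against the 3 lowest doses, and ASS1 from -0.083 to 0.013 in the latter. Such fits gave 0 to 3 members at 10 µM, 0 to 1 at 0.1 µM, at 100 µM and at the 3 lowest doses, 0 to 2 for 1000 against 100 µM, 1 to 3 over 7 groups and 2 to 4 for the slope. Features called ranged over 0 to 1470 at 0.01 µM, 0 to 865 at 0.1, 0 to 1264 at 1, 1260 to 4885 at 10 and 26 to 2002 at 100 µM. For 1000 against 0 µM they ranged over 5141 to 8051, and for the slope over 3472 to 6365. They ranged over 0 to 2686 for the 3 lowest doses, 3071 to 6402 for 1000 µM against these, 0 to 1 for 10 against 1 µM, 1 to 13 for 100 against 10, 1302 to 3485 for 1000 against 100 and 3071 to 6221 over 7 groups.

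DESeq2 called more features, 2118 against 864 at 0.01 µM, 519 against 0 at 0.1, 1379 against 0 at 1, 2011 against 1051 at 100 and 2502 against 1538 at the 3 lowest doses. Between neighbours, from low to high, it called 2, 2, 8 and 59 where edgeR called 0, 0, 0 and 9, with 2 members at 100 µM and 2 for 1000 against 100. RLE scaling left 0 members at 10 µM. Requiring 10 counts in every sample gave 1301 features at 0.01 µM and 2 members for 1000 against 100. The mitochondrial covariate gave 1 feature at 0.01 µM, 1 for 10 against 1, 1 member at 100 µM and 2 for 1000 against 100. With no filter there were 101 features at 0.1 µM, 230 at 1, 2 and 1 at the 2 lowest steps, and members numbered 0 at 10 µM, 0 for 1000 against 100 and 2 for the slope. Fitting the 6 samples alone gave 2 features at 0.01 µM, 1 at 0.1 and 4015 at 100, with 3 members at 100. The 18 treated samples alone gave 1 member and 2211 features over the groups, 1 and 1984 for the slope, and an ASS1 slope of 0.0098. Without 1000 µM these were 0 and 159, 0 and 1051, and a CPS1 slope of 0.0015. The last 3 settings used fewer samples, and the cause of these differences was not tested.

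Replicate numbers showed no pairing of the samples over all pairs. Same-numbered pairs correlated at -0.437 to 0.249 (median 0.0199, 63 pairs). Differently numbered pairs correlated at -0.324 to 0.505 (median -0.00497, 126 pairs). Of the samples, 5 correlated best with their own number, and a batch shared by only some doses was not tested. With the number as a replicate block, 0 features passed at 0.01 µM, 445 at 100, 852 at the 3 lowest doses and 1 for 100 against 10, with 0 members at 10 µM and 0 for 1000 against 100.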
